A study of Mus musculus with 8 samples.

Results

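Cxcr2 is the receptor that draws neutrophils towards the CXC chemokines carrying an ELR motif. It lies on mouse chromosome 1 beside its relative Cxcr1 and among other genes of unrelated function. The genes of that stretch followed here in spleen neutrophils of mice with and without Cxcr2 are, in chromosome order, Tns1, Rufy4, Cxcr2, Cxcr1, Arpc2, Gpbar1, Aamp, Pnkd, Tmbim1 and Slc11a1. They were chosen by the distance of their start sites from that of Cxcr2 (up to 250 kb) and, since RNA of several was already known to differ in these data, selected on the log2 fold changes of the contrast described here. All 10 passed the filter on low counts, among 16778 genes tested and 55414 identifiers listed. Neutrophils (CD45+ CD11b+ Ly6G+ F4/80-) were sorted after a magnetic selection for CD11b from spleen, with 4 WT mice and 4 Cxcr2-/- mice. All mice were 10 weeks old, on the FVB background and kept under specific and opportunistic pathogen free conditions. Each library came from 1 mouse. The knockout is germline, so that every cell type of the Cxcr2-/- mice carries it, and the animals had been crossed into FVB for many generations. The WT mice were FVB too, and the sources used here do not say that they were littermates. Loss of the receptor, the altered DNA of the targeted locus and any DNA of the donor strain still linked to it come together in every Cxcr2-/- mouse, and cannot be told apart in this comparison.

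Cxcr2 and its close relative Cxcr1 are receptors coupled to G proteins of the Gi family. In neutrophils, Cxcr2 binds Cxcl1, Cxcl2 and related chemokines and drives exit from the bone marrow and migration into inflamed tissue. Arrestins and receptor kinases then switch the receptor off and carry it into the cell. Genes that lie side by side on a chromosome can share enhancers and promoters.

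The interval runs over 475832 bases of GRCm38, the assembly that mm10 names, from the 3′ end of Tns1 to the 3′ end of Slc11a1. Tns1, which encodes tensin 1, an adaptor that links integrins to actin, takes up chr1:73910231-74124449 on the minus strand. Rufy4, which encodes a RUN and FYVE domain protein tied to autophagy and lysosome positioning, lies at chr1:74125541-74148223 on the plus strand. The start sites of Tns1 and Rufy4 face away from each other and are 1092 bases apart. Rufy4 ends 5766 bases before the start of Cxcr2 (chr1:74153989-74161246, plus strand). Cxcr1 (chr1:74191785-74194631, minus strand) follows, with 30539 bases between the 3′ ends of the 2 receptor genes. Beyond it come Arpc2 at chr1:74236084-74268209, Gpbar1 at chr1:74278550-74279624, Aamp at chr1:74279840-74284738, Pnkd at chr1:74284930-74353694 with Tmbim1 (chr1:74288247-74305622) inside its span on the other strand, and Slc11a1 at chr1:74375195-74386062. These positions are those of the GENCODE M21 annotation, whereas the annotation release behind the counts is not given in the sources used here.

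The 4 genes of the interval whose RNA was lower in Cxcr2-/- neutrophils had promoters of different make-up, and their sequences are shown because the question here is what these 4 share besides position. They are taken from RefSeq (GRCm38.p6) and run 5′ to 3′ on the strand of the gene, from 250 bases before the start site to 50 bases after it. For these 4 genes the start sites of RefSeq lie 0 to 99 bases from those of GENCODE. The Tns1 promoter is at chr1:74124499-74124798 (minus strand), that of Rufy4 at chr1:74125291-74125590, that of Cxcr2 at chr1:74153744-74154043 and that of Slc11a1 at chr1:74374953-74375252 (each plus strand). Capitals mark matches on either strand to GAGGAA, a core of the sites of PU.1 and other ETS factors, and to TGANTCA, a core of AP-1 sites.
Tns1: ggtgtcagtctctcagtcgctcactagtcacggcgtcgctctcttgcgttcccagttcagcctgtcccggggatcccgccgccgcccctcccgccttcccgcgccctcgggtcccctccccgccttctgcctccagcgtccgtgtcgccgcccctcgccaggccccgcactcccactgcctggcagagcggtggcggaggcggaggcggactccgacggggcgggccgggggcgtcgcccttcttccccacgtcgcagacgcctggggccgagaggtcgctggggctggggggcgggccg
Rufy4: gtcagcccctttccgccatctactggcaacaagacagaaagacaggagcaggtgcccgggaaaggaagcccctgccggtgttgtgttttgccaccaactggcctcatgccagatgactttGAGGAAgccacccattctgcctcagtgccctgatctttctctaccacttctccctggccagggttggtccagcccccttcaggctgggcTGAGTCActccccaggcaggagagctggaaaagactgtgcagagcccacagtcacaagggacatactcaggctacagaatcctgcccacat
Cxcr2: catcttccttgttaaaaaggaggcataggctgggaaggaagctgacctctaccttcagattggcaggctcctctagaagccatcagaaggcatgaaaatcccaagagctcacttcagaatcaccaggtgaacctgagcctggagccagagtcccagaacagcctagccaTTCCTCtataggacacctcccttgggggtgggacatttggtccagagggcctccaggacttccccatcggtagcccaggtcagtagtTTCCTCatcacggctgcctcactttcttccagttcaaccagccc
Slc11a1: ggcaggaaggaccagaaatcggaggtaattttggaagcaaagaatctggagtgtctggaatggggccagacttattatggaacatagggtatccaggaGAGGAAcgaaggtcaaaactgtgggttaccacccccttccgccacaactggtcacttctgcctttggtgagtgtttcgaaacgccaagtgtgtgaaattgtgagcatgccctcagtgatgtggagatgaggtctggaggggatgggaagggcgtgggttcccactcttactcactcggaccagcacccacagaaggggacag
The Tns1 promoter holds 37 CpG dinucleotides and is 75.7% G and C, and 94.4% of the 32851 promoters of the same length held fewer CpG. Its neighbour Rufy4 holds 3 CpG, Cxcr2 holds 2 and Slc11a1 holds 7, where the median of all promoters is 7. GAGGAA was found once in Rufy4, once in Slc11a1 and, as TTCCTC, at 2 places in Cxcr2, but not in Tns1. In all, 4 of the 10 genes held it (Aamp was the other), against 28.3% of all promoters. TGANTCA was found in Rufy4 alone among the 10 and in 7.81% of all promoters. TTGCNNAA, a core of C/EBP sites, was in none of the 10 windows and in 10.8% of all promoters. Of the 10 windows, that of Pnkd lies at another start site, 47.7 kb from the one given above, and that of Tmbim1 at one 1.29 kb away. The motifs were picked with the sequences in view, and a match describes letters, not binding.

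Depth overlapped between the groups, with 34220182 to 46233555 counts on genes per WT library and 37549648 to 43789253 per Cxcr2-/- library. Reads that overlapped no counted feature made up 31.4% to 41.5% of the WT libraries and 26.7% to 31.9% of the Cxcr2-/- libraries. Their part in the values was not tested. Levels are given as CPM, the usual counts scaled to library size, after TMM, a normalization to the bulk of genes. Means are given with SD over 4 mice, and fold changes are log2 values of Cxcr2-/- over WT with their standard error. A gene was called when edgeR's quasi-likelihood test gave a Benjamini-Hochberg adjusted p under 0.05 and the change was at least 1.5-fold. The sorted cells had abundant Ly6g, S100a8 and S100a9. The summed CPM of 8 neutrophil genes was 31080 to 44810 in WT and 67650 to 81580 in Cxcr2-/- libraries, and that of 9 genes of early granule formation (Mpo, Elane, Ngp, Ltf and others) was 19420 to 23500 and 44580 to 63600. Of the 8 neutrophil genes, 5 were called higher, beside 15.7% of all genes tested, and Itgam and Mmp8 were not called. Csf3r was called lower, at 6960 and 3334 CPM (log2 fold change -1.06). The largest parts of the neutrophil sum were S100a8 (12050 CPM in WT and 28420 CPM in Cxcr2-/- mice) and S100a9 (13530 and 33870 CPM). Those of the early granule sum were Ltf (8700 and 21060 CPM), Ngp (8357 and 21080 CPM), Camp and Chil3. Mpo (2.81 and 66.55 CPM) and Elane (1.22 and 43.83 CPM) made up little of it. Genes of other cells were at far lower sums. Those of 6 B cell genes were 27.4 to 60.9 in WT and 13.8 to 31.2 in Cxcr2-/-, those of 8 macrophage and monocyte genes were 697 to 811 and 838 to 934, and no defining marker was at 0 in all libraries. The macrophage and monocyte genes went in opposite directions, with Ly6c2 (log2 fold change 1.40) and Mertk (1.09) called higher, Csf1r (-0.93) and Adgre1 (-1.31) called lower and a median of -1.01. The neutrophil, early granule, macrophage and stromal sums did not overlap between the groups (exact permutation test, two-sided, p = 0.0286, adjusted p = 0.0714 over 10 lists, n = 4 each, where 0.0286 is the smallest p possible). The stromal sum (10.23 to 12.45 in WT and 15.36 to 17.89 in Cxcr2-/- libraries) was nearly all Pecam1, at 10.34 and 16.13 CPM. Col1a1, of the same list, went the other way, at 0.434 and 0.120 CPM. The B cell sums had p = 0.0571 (adjusted p = 0.114) and the 5 remaining lists had p from 0.0857 to 0.514 in the same exact test. The part of such shifts in cell make-up in the values below was not tested, and in bulk RNA fewer cells of a type and less RNA per cell cannot be told apart.

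Cxcr2 was among the most abundant genes of WT neutrophils and was nearly lost from Cxcr2-/- neutrophils. It was at 2252, 1719, 1940 and 1913 CPM in the WT mice and at 20.7, 19.0, 15.6 and 12.9 CPM in the Cxcr2-/- mice. Every Cxcr2-/- library lay far below every WT library, with a log2 fold change of -6.84 (SE 0.19), and of all genes tested only 1 had a lower value. The reads that remained were 818, 686, 615 and 532 counts, or 1.06%, 0.971%, 0.799% and 0.661% of the WT mean. The coding sequences of Cxcr2 (1077 bases) and Cxcr1 (1053 bases) each lie in 1 exon and share 72% of 1045 aligned bases. Their longest identical run, shown because reads inside it could belong to either gene, is 14 bases long.
Cxcr2 at chr1:74159279-74159292 and Cxcr1 at chr1:74191927-74191940: atcatctatgcctt
Within the coding sequences, a read much longer than this run covers bases that differ between the 2 genes. Their untranslated sequences were not compared. Whether the remaining Cxcr2 counts come from exons left in the targeted allele was not tested, since the files give 1 count per gene.

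Tns1 and Rufy4, the 2 genes on the other side of Cxcr2, had the lowest log2 fold changes of the interval after Cxcr2 itself. Tns1 was at 84.2, 101, 77.2 and 101 CPM in the WT mice and at 7.03, 6.70, 6.56 and 8.43 CPM in the Cxcr2-/- mice. The means were 90.7 ± 12.0 and 7.18 ± 0.860 CPM (n = 4 each), a log2 fold change of -3.66 (SE 0.13), and the Cxcr2-/- libraries differed from each other by less than 2 CPM while all lay below the lowest WT library. Rufy4 was at 73.7, 58.2, 67.8 and 77.1 CPM in the WT mice and at 12.9, 13.7, 12.6 and 14.5 CPM in the Cxcr2-/- mice. Its means were 69.2 ± 8.27 and 13.4 ± 0.824 CPM, a log2 fold change of -2.37 (SE 0.11), again with no overlap. Ranked over all genes tested from the lowest log2 fold change, Tns1 stood at place 15 and Rufy4 at place 156. The nearer of the 2 to Cxcr2 by its gene body, Rufy4, thus had the smaller change, while their start sites lie at almost the same distance (28.4 and 29.5 kb).

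**Figure D1:**
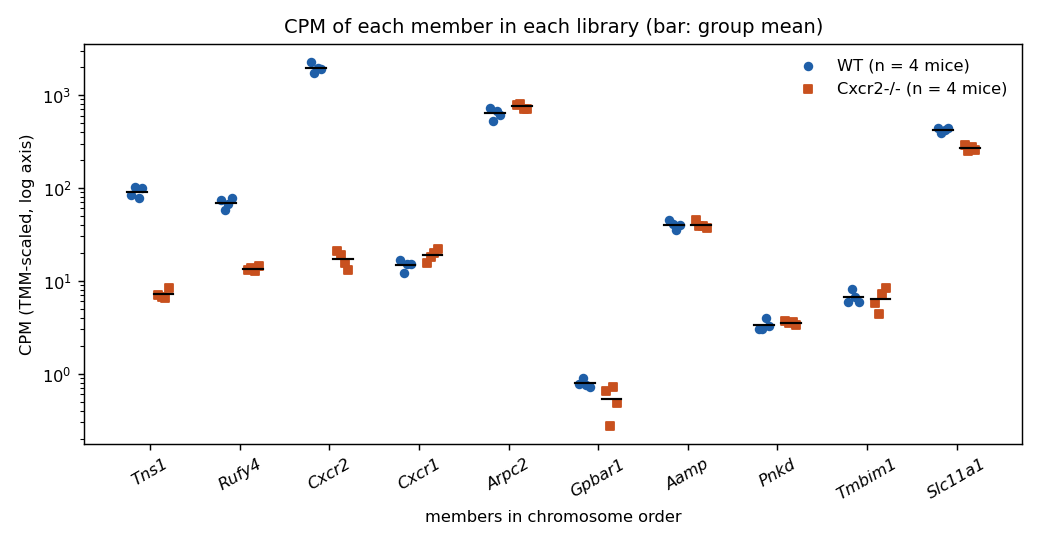
CPM of the 10 genes in each library on a log axis, in chromosome order, with a circle for each WT mouse, a square for each Cxcr2-/- mouse (n = 4 each) and a bar at the group mean. Tns1, Rufy4, Cxcr2 and Slc11a1 show clear gaps between the groups, Gpbar1 shows a gap at under 1 CPM, and the other 5 overlap.

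On the side that follows Cxcr2, its relative Cxcr1 did not share the loss. Cxcr1, a second receptor for ELR chemokines, was at 16.9, 12.0, 15 and 15.3 CPM in the WT mice and at 15.5, 18, 20.1 and 21.8 CPM in the Cxcr2-/- mice. The means of 14.8 ± 2.03 and 18.8 ± 2.74 CPM differed by a log2 fold change of 0.35 (SE 0.14), and the lowest Cxcr2-/- library lay within the WT range. It was not called. Between Cxcr1 and Arpc2 lies Mir1928, a microRNA gene, which failed the filter on low counts.

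Arpc2, a subunit of the Arp2/3 complex that nucleates branched actin, was the most abundant neighbour. Its levels were 724, 529, 677 and 613 CPM in WT and 773, 805, 713 and 713 CPM in Cxcr2-/- libraries, with 1 WT library above 2 of the Cxcr2-/- libraries. The log2 fold change was 0.24 (SE 0.11), and it was not called. Gpbar1, a receptor for bile acids, was at the limit of detection, with 35, 45, 28 and 25 counts in WT and 26, 10, 28 and 20 counts in Cxcr2-/- libraries. After scaling, every Cxcr2-/- library (0.277 to 0.712 CPM) was below every WT library (0.723 to 0.904 CPM), but by a margin of about a single read, and the log2 fold change of -0.56 (SE 0.34) was not called.

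Aamp, Pnkd and Tmbim1 had group means closer to each other than the mice were among themselves. Aamp, a WD repeat protein linked to cell migration, was at 45.1, 40.8, 35.5 and 39.4 CPM in the WT mice and at 45.3, 38.9, 38.9 and 36.7 CPM in Cxcr2-/- libraries, a log2 fold change of -0.01 (SE 0.10). Pnkd, which encodes a protein related to glyoxalase II enzymes and mutated in a movement disorder, was at 3.03 to 3.98 CPM in WT and 3.35 to 3.69 CPM in Cxcr2-/- libraries, a log2 fold change of 0.09 (SE 0.17). Tmbim1, a membrane protein of lysosomes and endosomes related to Bax inhibitor 1, was at 5.88, 8.24, 6.76 and 5.96 CPM in the WT mice and at 5.76, 4.37, 7.24 and 8.31 CPM in Cxcr2-/- libraries, a log2 fold change of -0.06 (SE 0.20). The 2 groups overlapped for each of these genes. Exons of other genes on the opposite strand cover 9.66% of the exon bases of Aamp (Gm28364) and 25.8% of those of Tmbim1 (Gm29358). Both of those genes had 0 counts in every library. The libraries were strand-specific, but the strand setting of the counting is not given in the sources used here. In these data 133 genes lay wholly inside opposite-strand exons of a gene with many counts. Only 1 of the 133 had at least 10 counts. The 0 counts of Gm28364 and Gm29358 therefore cannot be read as absence of their RNA. Whether Aamp and Tmbim1 lost reads from the shared bases was not tested.

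Slc11a1, the farthest of the 10 at 221.2 kb, encodes the metal transporter Nramp1 of phagosomes, which withholds iron and manganese from microbes. It was at 441, 388, 415 and 436 CPM in the WT mice and at 286, 248, 277 and 252 CPM in Cxcr2-/- libraries. The means of 420.0 ± 23.9 and 266 ± 18.6 CPM left a wide gap between the groups, with a log2 fold change of -0.66 (SE 0.09). Among the 7 genes that follow Cxcr2, Slc11a1 was the only one called. With a covariate for B cell and macrophage RNA in the fit its value was -0.68.

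Counted over the interval, 4 of the 10 genes were called lower and 0 higher, where 31.3% of all genes tested were called in either direction and 15.7% were called lower. In 5 of the 10 the groups did not overlap, each time with Cxcr2-/- lower, where 41.6% of all genes tested had no overlap and 19.1% had none with Cxcr2-/- lower. Because these genes were chosen with this contrast known, the counts describe them and test nothing. The median log2 fold change of the 10 was -0.31, and that of the 9 without Cxcr2 was -0.06, beside 0.01 over all genes tested. Over the 7 genes after Cxcr2 the values ran from -0.66 to 0.35 with a median of -0.01.

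The changes did not fall off evenly with distance on both sides. The 2 genes before Cxcr2, with start sites 28.4 and 29.5 kb away, had log2 fold changes of -2.37 and -3.66. Cxcr1 at 40.6 kb and Arpc2 at 82.1 kb on the other side had values slightly above 0, and the only called gene on that side was the one at 221.2 kb. Of the 18 annotated genes with a start site within 250 kb that the files list, 13 were tested. The 3 tested genes that are not among the 10 are Catip (208.1 kb, log2 fold change -0.34, SE 0.32), the phosphatase gene Ctdsp1 (237.5 kb, 0.44, SE 0.12) and the microRNA gene Mir26b in an intron of Ctdsp1 (240.3 kb, 0.85, SE 0.46). None of the 3 was called. The reads kept by the authors were longer than the 85 bases of Mir26b, so that its counts do not measure the mature microRNA. Ctdsp1, whose range overlapped between the groups, was at 220 ± 24.9 CPM in the WT mice against 299 ± 39.8 CPM in the Cxcr2-/- mice. The first gene past the limit after Cxcr2 is Vil1 at 255.4 kb (log2 fold change -0.32, SE 0.42, not called). Before Cxcr2 the first is 6030407O03Rik at 289.5 kb, with 2 counts in 1 WT library and 0 in all others, and after Rufy4 and Tns1 no tested gene is met on that side until Rpl37a at 1442.7 kb.

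**Figure D2:**
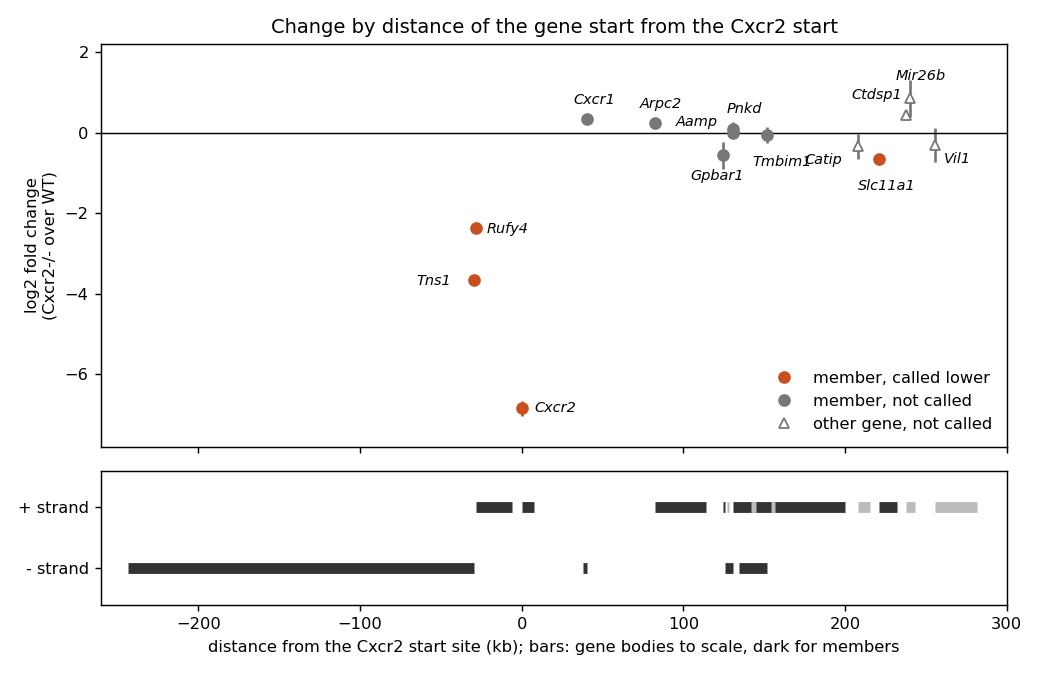
Log2 fold change (Cxcr2-/- over WT, bar: SE) against the distance in kb of each gene's start site from that of Cxcr2, with gene bodies drawn to scale by strand underneath. The 3 points far below 0 are Cxcr2 and the 2 genes before it, and the points after it lie between -0.66 and 0.85.

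Within 5 Mb of Cxcr2, outside the chosen genes, changes were more often upward. Of the 42 tested genes within 5 Mb of Cxcr2, the 10 genes left out, 15 were called higher and 4 lower, where 15.7% of all genes tested were called in each direction. That is 45.2% called, beside 31.3% of all genes tested and 33.9% of the 1061 genes tested on chromosome 1 beyond 5 Mb. Beyond 5 Mb the calls leaned the other way, with 152 higher and 208 lower and a median log2 fold change of -0.05. Within 5 Mb the values were as follows. The median log2 fold change of the 42 genes was 0.45, beside 0.01 for all genes, with 29 of 42 above 0. The share was 40.0% of 15 genes from 0.25 to 1 Mb, 58.8% of 17 genes from 1 to 2.5 Mb and 42.9% of 7 genes from 2.5 to 5 Mb, bins that each hold under 20 genes. It was 24.4% of 45 genes from 5 to 10 Mb, with a median of -0.05, and 39.3% of 211 genes from 10 to 20 Mb, with a median of -0.10. Beyond 20 Mb it was 33% of 805 genes. On the side of Tns1, 5 of 8 tested genes were called higher and 0 lower. On the side of Cxcr1, 10 of 34 were called higher and 4 lower.

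Before Cxcr2, the 3 largest changes without overlap were those of Bard1, Xrcc5 and Smarcal1, each of which encodes a protein of DNA repair or replication. Bard1, the partner of Brca1, was 3050.8 kb away and was at 4.68 ± 0.581 CPM in the WT mice against 15.7 ± 1.45 CPM in the Cxcr2-/- mice (edgeR quasi-likelihood test with Benjamini-Hochberg adjustment, adjusted p = 1.04e-06). Xrcc5, the Ku80 subunit of end joining, was at 0.805 and 2.22 CPM (log2 fold change 1.45, edgeR adjusted p = 9.75e-04), with the lowest Cxcr2-/- library at 1.74 CPM and the highest WT library at 1.04 CPM. Smarcal1, a helicase of stalled replication forks, was at 10.3 and 19.5 CPM (log2 fold change 0.92, edgeR adjusted p = 3.35e-05). For all 3, each of the 4 Cxcr2-/- mice was above every WT mouse, but the 3 genes were picked among called genes without overlap. Fn1, the fibronectin gene, had the larger log2 fold change of 1.78 (SE 0.47) but overlapping groups.

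After Cxcr2, 5 genes between 352.1 and 447.5 kb were called higher, namely Cnot9, Zfp142, Bcs1l, Rnf25 and Stk36. Zfp142 and Bcs1l start at the same distance of 434.3 kb, and Rnf25 and Stk36 at 447.4 and 447.5 kb. Stk36, a kinase gene of the Hedgehog pathway, was at 2.34 and 7.26 CPM (log2 fold change 1.63, edgeR adjusted p = 1.03e-05). Genes called lower lay farther out, at 979.9 kb (Slc23a3), 1082.4 kb (Dnajb2), 1110.5 kb (Ptprn) and 1367.5 kb (Stk11ip). Other genes called higher lay as far out, namely Zfand2b (1014.7 kb), Tuba4a (1065.9 kb), Dnpep (1164 kb), Gmppa (1281.9 kb) and Farsb (4334.9 kb). Stk11ip, which encodes a lysosomal protein that binds the kinase Lkb1, was at 78.3, 81.2, 72.2 and 88.3 CPM in the WT mice and at 27.6, 24.7, 29.9 and 26.4 CPM in the Cxcr2-/- mice (log2 fold change -1.56, edgeR adjusted p = 2.02e-07). Ptprn, a phosphatase-like gene of secretory granules, was at 1.17 ± 0.276 and 0.338 ± 0.185 CPM (log2 fold change -1.78, edgeR adjusted p = 0.00209). Neighbouring genes called in opposite directions, such as Tuba4a (1065.9 kb, log2 fold change 0.79) and Dnajb2 (1082.4 kb, -1.05), lie side by side. Gmppa, an enzyme gene of sugar nucleotide synthesis, had a log2 fold change of 1.29 (SE 0.12) at 1281.9 kb. Fn1, Gmppa, Tuba4a, Zfand2b, Dnpep, Farsb, Slc23a3, Dnajb2 and the 4 genes beside Stk36 were named after their values were seen.

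**Figure D3:**
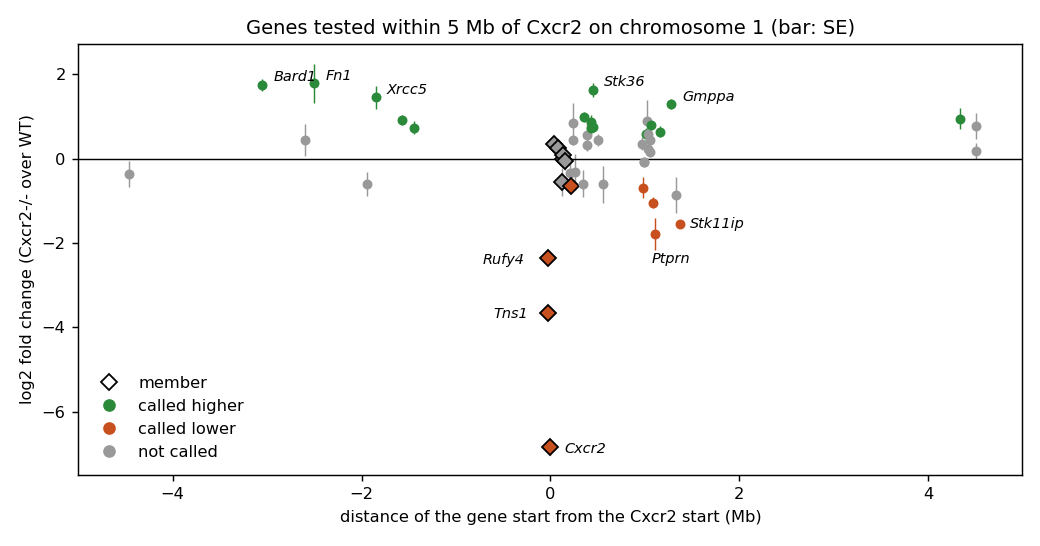
Log2 fold change (Cxcr2-/- over WT, bar: SE) of each tested gene within 5 Mb of Cxcr2 on chromosome 1 against the distance of its start site in Mb, with diamonds for the 10 genes of the interval. Outside the interval the called genes lie between -1.78 and 1.78, and on the side of Tns1 all 5 are above 0.

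Set per kb of exon sequence, so that genes of unequal length can be compared, the order of the 10 genes differed between the groups. In WT neutrophils Cxcr2 stood first at 642 ± 72.4 CPM per kb, at the 99.8 percentile of genes tested, ahead of Arpc2 at 313 ± 41.6 and Slc11a1 at 113 ± 6.46 CPM per kb. Rufy4 followed at 29.7 ± 3.55, then Aamp at 11.6 ± 1.14 and Cxcr1 at 9.92 ± 1.36, whose ranges overlapped, and Tns1 at 5.67 ± 0.747 CPM per kb. Gpbar1 (0.732), Tmbim1 (0.530) and Pnkd (0.425 CPM per kb) came last, the latter 2 with overlapping ranges. In Cxcr2-/- neutrophils Arpc2 led at 369 ± 22.5 CPM per kb, followed by Slc11a1 at 71.8 ± 5.02. Cxcr1 (12.6 ± 1.84) overlapped with Aamp (11.6 ± 1.08), and Rufy4 (5.76 ± 0.354) with Cxcr2 (5.60 ± 1.14 CPM per kb), which had moved from place 1 to place 6. Tns1 stood at place 10 at 0.448 ± 0.0537 CPM per kb, a range it shared with Pnkd. The exon length is the union of all annotated exons, which can understate the level of a gene such as Tmbim1 with many alternative exons.

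The genes around the receptor's signal went in both directions. Of 25 ligands and signal transducers of Cxcr2, 22 were tested, and 5 were called higher and 6 lower, beside 15.7% of all genes tested in each direction. The median log2 fold change was 0.18 beside 0.01 over all genes. The 11 calls became 7 without WT replicate 2, WT replicate 4 or Cxcr2-/- replicate 1. Among the ligands, Cxcl2 was at 349, 377, 666 and 488 CPM in the WT mice and at 12.7, 9.91, 236 and 193 CPM in the Cxcr2-/- mice, so that the Cxcr2-/- mice fell into a low and a higher pair (log2 fold change -2.06, edgeR adjusted p = 0.0484). That call was lost in 8 of 16 other settings, among them DESeq2 and 6 of the 8 fits that left out a library. Cxcl3 was at 2.34 and 0.483 CPM (log2 fold change -2.25, edgeR adjusted p = 0.00929), and Cxcl1 at 0.63 and 0.25 CPM was not called (edgeR adjusted p = 0.109). Among the 19 transducers, 5 were called higher and 4 lower, where 31.3% of all genes were called in either direction. Gna15, a G protein alpha subunit of blood cells, was at 21 ± 0.824 and 46.4 ± 13.2 CPM (log2 fold change 1.14, edgeR adjusted p = 1.02e-04), and Plcb3, a phospholipase C, had a log2 fold change of 0.81. Grk5, a kinase that switches receptors off, was at 81.3 ± 8.59 and 41.8 ± 2.71 CPM (log2 fold change -0.96, edgeR adjusted p = 7.38e-06).

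Arpc2 was next compared with the other 8 subunits of its complex, whose genes lie elsewhere. All 8 had a log2 fold change above 0, from 0.06 to 0.59 with a median of 0.32, and the 0.24 of Arpc2 lay inside that range. Only Arpc4 was called higher (15.7% of all genes were), at 240 ± 25 CPM in the WT mice against 361 ± 24.9 CPM in the Cxcr2-/- mice (edgeR quasi-likelihood test with Benjamini-Hochberg adjustment, adjusted p = 4.96e-04), and that call was lost in 11 of 16 other settings. Actr3 (0.46), Arpc3 (0.42) and Arpc1b (0.36) had an adjusted p under 0.05 but a change of less than 1.5-fold.

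Of 18 relatives of the 10 genes in other parts of the genome, all tested, 1 was called higher and 2 lower, where 31.3% of all genes were called in either direction, and the median log2 fold change was -0.08. Where Tns1 was at -3.66, the other tensin genes Tns2, Tns3 and Tns4 were at -0.37, -0.07 and 0.51, and none was called. Where Rufy4 was at -2.37, Rufy1, Rufy2 and Rufy3 were at -0.25, -0.44 and 0.03, with none called. Tns2, Rufy1 and Rufy2 had an adjusted p under 0.05 and no overlap, lower in Cxcr2-/-, but a change of less than 1.5-fold. Of the chemokine receptors, Cxcr4, which holds neutrophils in the bone marrow, was at 646 ± 76.4 CPM in the WT mice against 351 ± 39.0 CPM in the Cxcr2-/- mice (log2 fold change -0.88, edgeR adjusted p = 7.02e-05). By flow cytometry, the paper found a larger share of Cxcr4+ cells among spleen neutrophils of Cxcr2-/- mice. That measure is of protein and of cells above a gate, and it went the other way from the RNA. Cxcr3 was at 3.44 and 1.05 CPM (log2 fold change -1.71, edgeR adjusted p = 6.49e-05). Ethe1, a mitochondrial sulfur dioxygenase with the same fold as the Pnkd protein, was at 29.5 ± 3.90 and 75.1 ± 6.48 CPM (log2 fold change 1.35). Slc11a2, the other Nramp transporter, was at about 1 CPM and was not called.

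**Figure D4:**
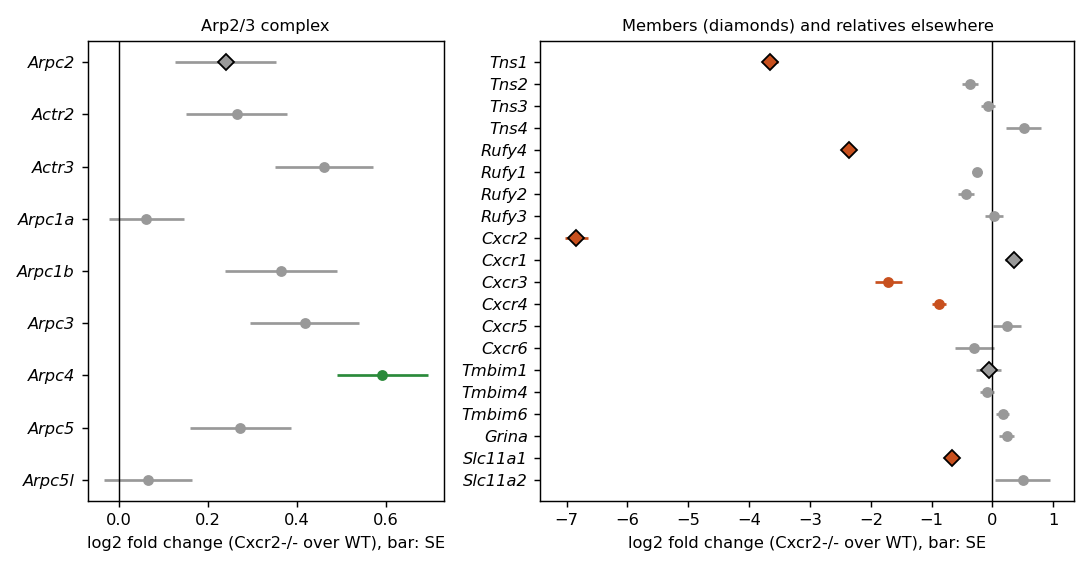
Log2 fold change (Cxcr2-/- over WT, bar: SE) of the Arp2/3 subunits, left, and of 6 other genes of the locus (diamonds) beside members of the same families elsewhere in the genome (circles), right, with colour for genes called higher (green) or lower (orange). Tns1 and Rufy4 lie at -3.66 and -2.37 and none of their 6 relatives lies below -0.44.

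Patterns over the 8 libraries were compared with that of Cxcr2 by the root mean square difference of the log2 (CPM + 1) deviations from the WT mean. Of the genes of the interval, Tns1 was nearest (2.35 log2 units), then Rufy4 (3.19), and the others lay between 4.33 and 5.03. Among 4131 genes outside the chosen 10 with a mean log2 CPM of at least 5, 1 was nearer than Tns1 and 18 were nearer than Rufy4. Tns1 and Rufy4, at a mean log2 CPM of 4.77 and 4.99, were themselves below that limit. Over all genes tested they stood at places 15 and 156 from the lowest log2 fold change. The measure depends largely on the size of the log2 fold change, on which the 10 genes were selected, so it describes them and tests nothing. The 5 nearest of these 4131 were Egr1 (2.25), Ptgs2 (2.51), Atf3 (2.54), Ccrl2 (2.67) and Slc7a11 (2.77 log2 units). Egr1 and Atf3 encode transcription factors of the immediate early response, Ptgs2 the enzyme cyclooxygenase 2, Ccrl2 a chemerin-binding receptor and Slc7a11 the cystine transporter. Ptgs2 and Atf3 are on chromosome 1 as well, 75946.0 and 117064.0 kb from Cxcr2. Among the Cxcr2-/- mice the coefficient of variation was 74.9% for Egr1, 56.9% for Ptgs2, 56.2% for Atf3 and 79.0% for Ccrl2. It was 20.3% for Cxcr2, 12.0% for Tns1 and 6.14% for Rufy4, the genes of the locus, and 17.3% for Slc7a11. The Cxcr2-/- mice thus differed among themselves in Egr1, Ptgs2, Atf3 and Ccrl2 more than in the 3 genes at the targeted locus.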

How the data were processed

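RNAseq was done on spleen neutrophils of 4 WT and 4 Cxcr2-/- mice, each a library of its own. Ribosomal RNA was depleted, reads were aligned to mm10, HTSeq counted them per gene, and the authors deposited these raw counts. No column was left out. Rows of the counting program that name no gene (reads on no counted feature were 26.7% to 41.5% of a library) were kept out of library sizes. Of 55414 identifiers, 52133 had an entry in GENCODE M21 and 3281, with 1.42% of the counts, had none. Only 35 identifiers carried the version number of that release.

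Counts were compared in R 4.3.3 with edgeR 4.0.16 (quasi-likelihood test, TMM, filterByExpr, Benjamini-Hochberg adjustment over 16778 genes). The biological coefficient of variation was 0.202. Steps were tested on simulated data. DESeq2 1.42.0, RLE and upper-quartile scaling, other filters, a replicate block, a covariate for B cell and macrophage RNA and leaving out each library were alternatives, and scaling by total counts was added after seeing the data. No 2 libraries agreed within sampling noise (chi-square per gene 23.9 to 99.0).

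The 10 genes and all gene lists were chosen with earlier results of these data known. Named besides the 10 were tested genes within 250 kb, the 3 largest changes on each side up to 5 Mb among called genes without overlap, up to 4 genes per list by size of change, the 5 genes outside the 10 most like Cxcr2 at a mean log2 CPM of at least 5, and marker genes. Promoters came from RefSeq tables, and coding sequences, aligned with Biopython 1.88, from GENCODE M21 transcripts.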

Additional observations from a re-analysis of the deposited data

Results flagged for a closer look

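Mir1928, a microRNA gene between Cxcr1 and Arpc2 (chr1:74206554-74206620, minus strand, 52.6 kb after the Cxcr2 start site), was too low to be tested, yet held reads in one group alone. It had 6, 10, 18 and 9 counts in the Cxcr2-/- libraries, 43 in all, and 0 counts in each of the 4 WT libraries, which allows up to 3 counts per library. That limit covers counting error only. The reads kept by the authors were longer than the 67 bases of this gene and the 17 bases of its mature microRNA. Its counts thus do not measure the mature form, and which longer RNA they came from was not tested. The mature microRNA of RefSeq (GRCm38.p6, chr1:74206562-74206578, minus strand) is shown with its seed, bases 2 to 8, in capitals, to name the gene these reads were assigned to.
mmu-miR-1928: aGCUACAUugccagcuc
No library of the 10 genes stood apart from the other 3 of its group by Dixon's test, in 20 groups of 4 tested.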

How the results depend on the processing

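The 10 genes gave 4 called lower and 0 called higher under all 16 alternatives, which were DESeq2, RLE, upper-quartile and total-count scaling, no filter, at least 10 counts in every library, a replicate block, a covariate for B cell and macrophage RNA, and each of the 8 libraries left out. Over these, the log2 fold change ran from -7.03 to -6.75 for Cxcr2, -3.78 to -3.60 for Tns1, -2.48 to -2.31 for Rufy4 and -0.78 to -0.62 for Slc11a1, all 4 called each time. The other 6 were never called, although Aamp (-0.13 to 0.05), Pnkd (-0.03 to 0.17) and Tmbim1 (-0.23 to 0.25) changed sign. With the covariate Tmbim1 was at 0.25. Upper-quartile scaling moved the median of all genes to -0.11 and gave 1975 genes called higher and 3227 lower, against 2628 of each, and the median within 5 Mb was then 0.33. The count called within 5 Mb ran from 17 to 21, also with protein-coding genes alone or distances between gene centres. The 21 came without a filter, where 91 genes instead of 42 were tested within 5 Mb. Their median log2 fold change was then 0.22. Without a fold threshold 3969 genes were called higher. Calls among the Cxcr2 ligands and transducers went from 11 to 7 with total-count scaling and ran from 7 to 10 with a library left out (7 without WT replicate 2, WT replicate 4 or Cxcr2-/- replicate 1). Of the ligands, 1 to 3 were called. The 1 call among the other Arp2/3 subunits went to 0 under DESeq2, RLE, upper-quartile and total-count scaling, no filter, at least 10 counts and the covariate, and was 0 or 1 with a library left out (0 without WT replicate 2, WT replicate 4, Cxcr2-/- replicate 1 or Cxcr2-/- replicate 2). The cause was not tested. The replicate numbers named different mice, and same-numbered libraries did not deviate together (correlations 0.11, -0.18, 0.15 and -0.25). With the replicate number as a block, the log2 fold changes of Cxcr2 and Tns1 were -6.86 and -3.66, 17 genes were called within 5 Mb, and 2470 genes were called higher and 2518 lower. Depth limited Gpbar1, with at most 45 counts a library, and the genes of the locus that failed the filter.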
